A study of Homo sapiens with 2 samples.

Results

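Transcripts of 10 heat shock protein genes, chosen by symbol, were followed in a human mammary epithelial line by Nanopore and by Illumina sequencing. They were the cytosolic chaperones HSP90AA1, HSP90AB1, HSPA8, HSPA1A, HSPA1B, HSPH1, DNAJB1 and HSPB1, and the mitochondrial pair HSPD1 and HSPE1. All 10 were found among the 58735 gene rows of the count tables, and all 10 passed the filter on low values used for testing, a mean of 5 or more counts per 1000000 (CPM) over both libraries. The RNA came from MCF10a-Snail-ER cells, a derivative of the non-tumorigenic breast line MCF10A that stably expresses the epithelial repressor Snail joined to the estrogen receptor. Cells for both libraries had been exposed to 100 nM tamoxifen over 1 day, which begins an epithelial-to-mesenchymal transition. One library was direct RNA sequencing on a MinION (kit SQK RNA01), which reads native polyadenylated strands, and the other was a TruSeq stranded mRNA library, which sequences amplified cDNA fragments. Each platform has 1 library, the RNA is described as matched, and no untreated or heat-stressed library was analysed here, so the values compare platforms and say nothing of a response to tamoxifen or stress. No value has a replicate check, and every interval and p-value covers counting error in these libraries only. In bulk RNA, fewer cells that express a gene and less RNA per cell cannot be told apart.

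Heat shock proteins are chaperones that bind unfolded or metastable proteins. HSP70 proteins cycle on and off short exposed stretches with the help of J-domain proteins, which trigger ATP hydrolysis, and of exchange factors, which release the nucleotide. HSP90 proteins act later and hold client proteins such as kinases and steroid receptors, among them the hormone-binding part of the estrogen receptor, in a state ready for ligand. Small heat shock proteins hold unfolding proteins without using ATP, and in mitochondria the HSP60 chamber with its HSP10 lid encloses imported proteins while they fold. Some members are made at all times and others mainly under stress, when the factor HSF1 binds heat shock elements in their promoters.

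Depth came to 403235 counts by Nanopore and to 191741714 by Illumina, 476 times as many. A single count was worth 2.48 CPM by Nanopore and 0.00522 CPM by Illumina. A limit that a count of 0 allows, taken as 3 counts, stood at 7.44 CPM by Nanopore and at 0.0156 CPM by Illumina. All 6 basal mammary markers (KRT5, KRT14, KRT17, TP63, ITGB4, LAMB3) were detected in both libraries, with summed levels of 3326 CPM in the Nanopore library and 3017 CPM in the Illumina library. CDKN2A, which MCF10A has lost, had 0 counts in both. Summed leukocyte markers reached 0 CPM and 0.125 CPM, endothelial markers 0 CPM and 5.16 CPM, and fibroblast markers 27.3 CPM and 32.4 CPM, by Nanopore and Illumina in turn.

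The stress-inducible HSP70 genes HSPA1A and HSPA1B are shown first by sequence, because their near identity bears on every count assigned to either. Each has a single exon on the plus strand of chromosome 6 in hg38, HSPA1A (ENSG00000204389) at 31815543 to 31817946 and HSPA1B (ENSG00000204388) at 31827738 to 31830254. Their coding sequences of 1923 bases differed at 4 positions, G1710T, G1860C, C1905T and A1920G, counted from 1 at the start of the coding sequence with the HSPA1A base first. The sequences were 99.8% identical, none of the 4 substitutions changed the protein, and the longest identical run was 1709 bases. The 120 coding bases from position 1801 to 1920 hold 3 of the 4 differences, marked by capitals in the hg38 sequence of each gene (HSPA1A at chr6:31817557-31817676, HSPA1B at chr6:31829751-31829870, both plus strand, 5′ to 3′):
HSPA1A: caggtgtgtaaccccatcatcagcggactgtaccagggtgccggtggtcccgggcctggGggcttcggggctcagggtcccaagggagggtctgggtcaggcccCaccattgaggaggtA
HSPA1B: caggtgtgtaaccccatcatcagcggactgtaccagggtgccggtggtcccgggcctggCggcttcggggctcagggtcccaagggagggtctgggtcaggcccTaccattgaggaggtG
Of the 50-base words in the canonical transcript of HSPA1A, 75.1% also occurred elsewhere on the main chromosomes, and all 1766 such words lay in HSPA1B.

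The second set shown is the heat shock element, the site that HSF1 binds in promoters. A relation of this element to the ratios between the platforms was not tested. The 250 bases before each RefSeq transcription start (assembly GRCh38.p14) were searched on both strands for GAANNTTCNNGAA, alternating GAA and TTC blocks. The motif was present in 155 of 35116 such windows (0.441%). Counted per gene, in any of its windows, 152 of 27305 genes had it (0.557%), as did 4 of the 10: HSP90AA1, HSP90AB1, HSPA8 and HSPD1. HSPA8 had GAAAGTTCCAGAA at 230 and TTCTGGAAGGTTC at 55 bases upstream of its start. For HSP90AB1, TTCTGGAAGATTC lay 165 and TTCTGGAAGCTTC 112 bases upstream of 1 of its 3 annotated starts. In HSPD1 the overlapping matches TTCTGGAAAGTTC and GAAAGTTCTGGAA began 245 and 240 bases upstream of 1 of its starts. HSP90AA1 has 2 annotated starts, and only the window of 1 held a match. That window, at chr14:102087045-102087294 on the minus strand, is shown 5′ to 3′ with its match, 88 bases upstream of that start, in capitals:
HSP90AA1: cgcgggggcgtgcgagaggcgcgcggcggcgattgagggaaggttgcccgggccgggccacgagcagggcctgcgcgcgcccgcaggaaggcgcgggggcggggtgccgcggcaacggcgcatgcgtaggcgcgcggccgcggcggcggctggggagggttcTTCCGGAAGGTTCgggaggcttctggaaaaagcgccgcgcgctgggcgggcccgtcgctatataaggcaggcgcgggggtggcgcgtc
The letters TATAAA were found for 2 of the 10 genes, HSPA1A and HSPA1B, against 13.0% of all genes, and CCAAT for 5 of the 10, against 37.0%. The upstream windows of HSPA1A and HSPA1B were 93.6% identical over their alignment. A match is a description of letters, and the absence of one says only that these letters are not in the window.

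The major cytosolic chaperones took a smaller share of the Nanopore than of the Illumina library. Together the 10 genes held 2162 Nanopore counts, 0.536% of the library (exact 95% binomial interval 0.514 to 0.559), and 1.03% of the Illumina counts. HSP90AA1, HSP90AB1 and HSPA8 made up 0.306% by Nanopore (0.289 to 0.323) and 0.81% by Illumina. In the exact binomial test on each gene's counts given the library totals, adjusted by the Benjamini-Hochberg method over 12414 genes, 7 of the 10 passed the threshold as higher by Illumina, where 27.2% of all genes tested did. HSPB1 alone passed as higher by Nanopore, against 20.2% of all genes tested, and DNAJB1 and HSPE1 did not pass. The shares of all genes were not matched for level, and the test calls smaller differences at higher counts. HSPD1, with 401 Nanopore counts, was called at 1.20-fold. With a 4-fold difference also required, HSPA1A was called higher by Illumina (7.31% of all genes tested) and HSPB1 higher by Nanopore (12.9%). The median log2 ratio of Nanopore to Illumina, on the log2(CPM + 1) scale, was -1.24 over the 10 genes and -0.42 over all genes tested, whose quartiles were -1.18 and 0.54.

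**Figure D1:**
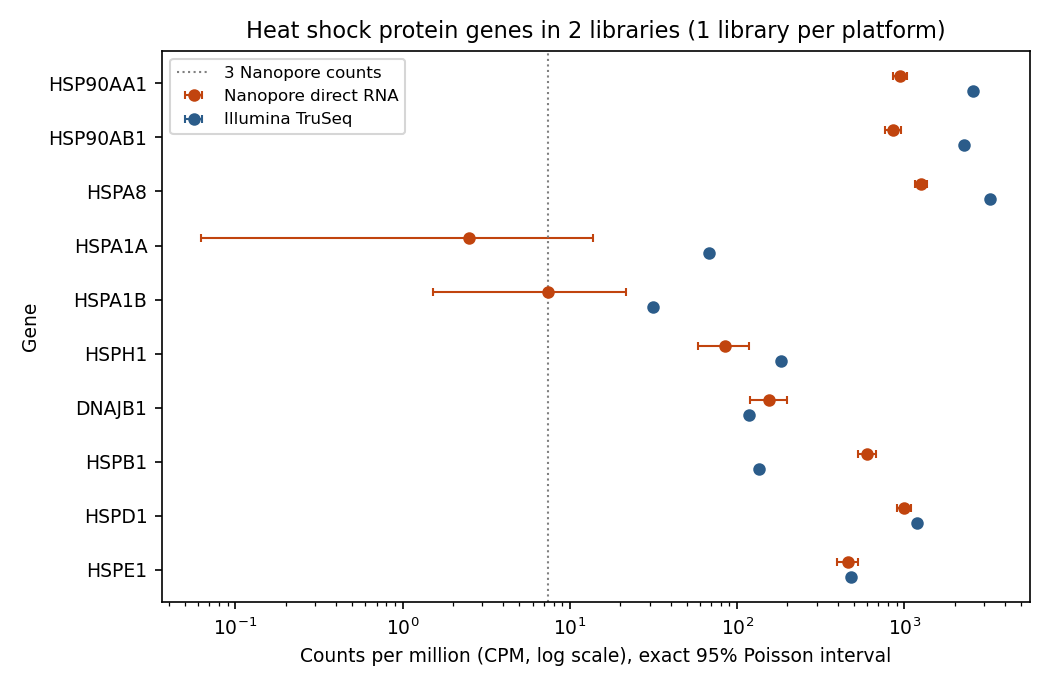
Level of each heat shock protein gene in CPM (log axis) in the single Nanopore library and the single Illumina library, with exact 95% Poisson intervals and a dotted line at 3 Nanopore counts (7.44 CPM). HSP90AA1, HSP90AB1 and HSPA8 sit to the right by Illumina, HSPB1 to the right by Nanopore, and HSPA1A and HSPA1B sit at or left of the line by Nanopore.

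HSP90AA1 (ENSG00000080824, chromosome 14, 102080742 to 102139699, minus strand) encodes the stress-responsive form of cytosolic HSP90. It had 380 Nanopore counts, or 942 CPM (exact 95% Poisson interval 850.0 to 1042), and 494768 Illumina counts, or 2580.4 CPM (2573 to 2588). The Illumina level was 2.74-fold higher (exact interval 2.48 to 3.04; exact binomial test, adjusted p = 1.93e-120). HSP90AB1 (ENSG00000096384, chromosome 6, 44246166 to 44253888, plus strand), the constitutive form, had 345 and 434457 counts, or 856 CPM (768 to 951) by Nanopore and 2266 CPM (2259 to 2273) by Illumina. Its Illumina level was 2.65-fold higher (2.38 to 2.95; exact binomial test, adjusted p = 6.29e-101). The intervals of the 2 libraries did not overlap for either gene, while the fold of each lay inside the interval of the other.

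HSPA8 (ENSG00000109971, chromosome 11, 123057489 to 123063230, minus strand) encodes HSC70, the HSP70 protein made at all times, which also uncoats clathrin vesicles. It had 508 Nanopore counts, or 1259.8 CPM (1153 to 1374), and 624117 Illumina counts, or 3255 CPM (3247 to 3263). The Illumina level was 2.58-fold higher (2.37 to 2.82; exact binomial test, adjusted p = 9.24e-140). In counts not divided by length, the proportions among these 3 genes were close in the 2 libraries. HSP90AA1 made up 52.4% of the counts of the HSP90 pair by Nanopore (exact interval 48.7 to 56.1) and 53.2% by Illumina. Set against HSPA8, the share of HSP90AA1 was 42.8% by Nanopore (39.5 to 46.1) and 44.2% by Illumina, and the share of HSP90AB1 was 40.4% (37.1 to 43.8) and 41.0%. Each Illumina share lay inside the Nanopore interval. All 3 log2 ratios were negative under every scaling, filter and length correction tried.

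The 3 protein-coding genes closest to HSPA8 in both libraries, by the summed absolute difference of log2(CPM + 1) over the 2 libraries, were HNRNPA1, PKM and MT-ND5. HNRNPA1, which binds pre-mRNA, stood at 1396 CPM by Nanopore and 3068 CPM by Illumina, a distance of 0.23. PKM, a glycolytic kinase, stood at 1086 and 3000.3 CPM (0.33), and MT-ND5, a mitochondrially encoded subunit of respiratory complex I, at 1572 and 3433 CPM (0.40).

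HSPA1A had 1 Nanopore count, or 2.48 CPM (0.0628 to 13.8), and 13102 Illumina counts, or 68.3 CPM (67.2 to 69.5). The ratio of Illumina to Nanopore was 27.6 (exact interval 4.94 to 1088; exact binomial test, adjusted p = 4.87e-10). HSPA1B had 3 Nanopore counts, or 7.44 CPM (1.53 to 21.7), and 6002 Illumina counts, or 31.3 CPM (30.5 to 32.1), a ratio of 4.21 (1.44 to 20.4; exact binomial test, adjusted p = 0.00786). The Illumina counts divided by canonical transcript length left HSPA1A called (log2 ratio -3.70, exact binomial test, adjusted p = 3.63e-06) but not HSPA1B (-1.26, adjusted p = 0.18). Since the counts cannot tell nearly identical copies apart with certainty, the sum is also given: 4 Nanopore counts (9.92 CPM) against 19104 Illumina counts (99.6 CPM), 10.0-fold higher by Illumina (3.92 to 36.9). A long noncoding gene, ENSG00000285565, shares 920 exonic bases with HSPA1B on the same strand and had 13 Nanopore counts (32.2 CPM) and 7466 Illumina counts (38.9 CPM). With its counts added to the pair, the sums were 17 and 26570 (42.2 and 139 CPM), and the fold was 3.29 (2.05 to 5.64). How reads on the shared bases were assigned is not given in the sources used here. HSPA1A made up 68.6% of the pair's Illumina counts and 1 of its 4 Nanopore counts (exact interval of the share 0.631% to 80.6%), an interval that holds the Illumina share. Both Nanopore levels were at or below the limit of 3 counts. Only 0.62% of all genes tested had a log2 ratio below that of HSPA1A.

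**Figure D2:**
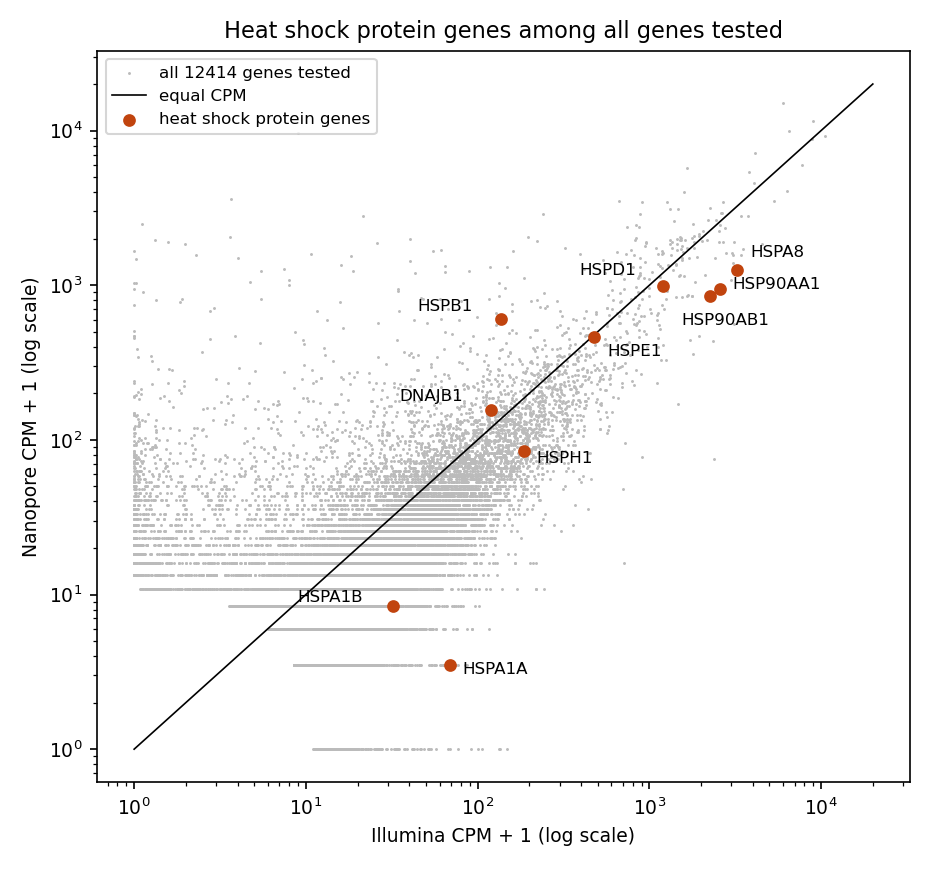
Nanopore CPM + 1 against Illumina CPM + 1 (both log axes) for the 12414 genes tested (grey) and the 10 heat shock protein genes (orange), with a line of equal CPM. HSPB1 lies above the line at 600.1 against 135 CPM, and HSPA1A lies far below it at 2.48 against 68.3 CPM.

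Among genes beside HSPA1A and HSPA1B, some had few Nanopore counts and others had more. On the side of HSPA1A, LSM2, an RNA-binding protein of the spliceosome, had 4 Nanopore and 10314 Illumina counts (log2 ratio -2.33), and the testis-enriched HSP70 gene HSPA1L had 0 and 123. Beyond HSPA1B, the lysosomal sialidase gene NEU1 had 2 and 8724 counts (-2.96), and SLC44A4 had 0 in both. HSPA1L, at 0.641 CPM by Illumina, lay below the 2.48 CPM of 1 Nanopore count. Its 0 and that of SLC44A4 therefore say nothing of a low Nanopore level here. The nearest tested genes beyond HSPA1B had more: the long noncoding ENSG00000285565 had 13 and 7466 counts (-0.26), and the small nucleolar RNA host gene SNHG32 had 10 and 14559 (-1.58). The region between the first and the last gene named HLA on chromosome 6 (29722775 to 33143325, hg38), which holds both HSPA1 genes, had 84 tested genes. Of these, 13 (15.5%) had no Nanopore count, against 1.70% of all genes tested and 2.46% of the 528 tested genes on the rest of chromosome 6. In the exact binomial test 61 of the 84 (72.6%) were higher by Illumina, against 27.2% of all genes tested. With 4-fold also required 53 of the 84 (63.1%) were, against 7.31%. By the test alone 3 of the 84 were higher by Nanopore, against 20.2% of all genes, HLA-B with 59 and 13240 counts among them. The region's median log2 ratio was -2.95, against -0.41 for the rest of chromosome 6. With 3 or fewer Nanopore counts, HSPA1A and HSPA1B were among 56 of the 84 genes at or below the limit. The same share was not counted over all genes tested, so the 56 cannot be set against a background.

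**Figure D3:**
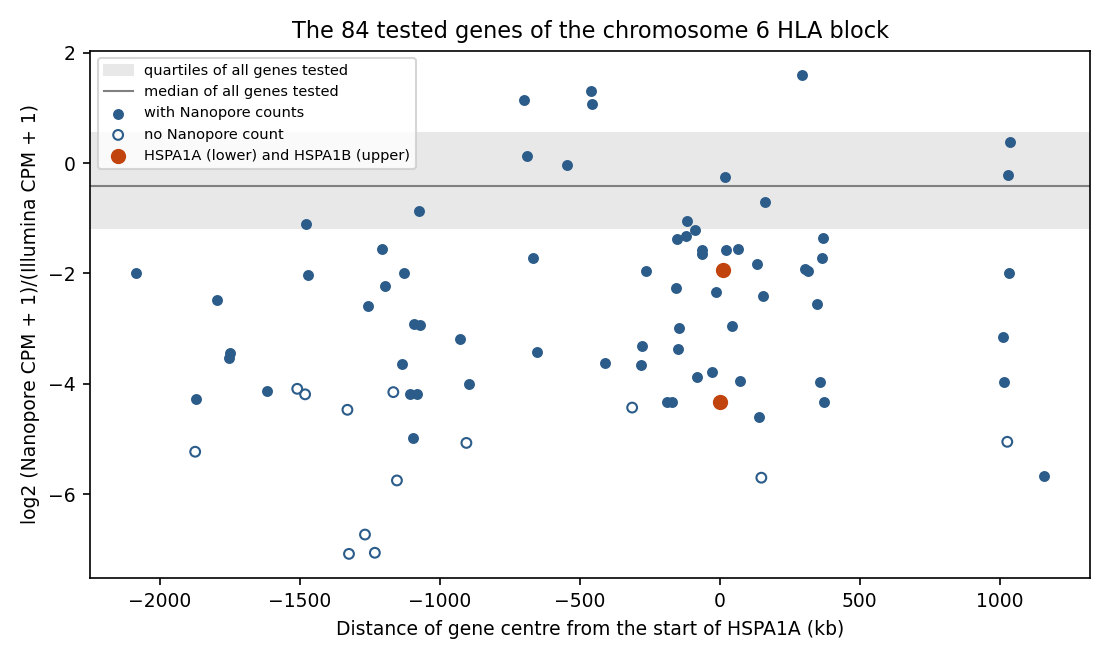
Log2 ratio of Nanopore to Illumina (CPM + 1) for each of the 84 tested genes of the chromosome 6 HLA region against the distance of its centre from the start of HSPA1A in kb, with open circles for genes with no Nanopore count and grey for the median and quartiles of all genes tested. HSPA1A (-4.32) and HSPA1B (-1.94) lie among neighbours of which most fall below the grey band.

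The hg38 assembly carries further versions of this region as alternate contigs. Of the 50-base words of HSPA1A, 97.9% also occurred on alternate contigs, and of those of HSPA1B, 98.0%, on 4 contigs each. Only alternate contigs of a gene's own chromosome were counted here. None of the other 8 heat shock genes had a word on such a contig, while 42 words of HSP90AA1 and 36 of HSPD1 occurred on other contigs. In the HLA region 83 of the 84 tested genes had at least 50% of their words on alternate contigs, and among 61 further chaperone genes 3 did. Those 3 were HSPA1L at 98.3%, the prefoldin subunit PFDN6 at 79.1%, which lies beyond the last HLA gene, and the mitochondrial J-domain gene DNAJA3 at 80.6%. PFDN6 had 5 Nanopore and 16784 Illumina counts and DNAJA3 10 and 15081, with log2 ratios of -2.72 and -1.63. Whether the authors' index held alternate contigs is not given in the sources used here, and the part of these contigs in the low Nanopore counts was not tested.

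HSPH1 (ENSG00000120694, chromosome 13, 31134973 to 31162388, minus strand) encodes HSP105, an HSP110-type exchange factor of HSP70. It had 34 Nanopore counts, or 84.3 CPM (58.4 to 118), and 35320 Illumina counts, or 184 CPM (182 to 186). By CPM it was 2.18-fold higher by Illumina (1.56 to 3.16; exact binomial test, adjusted p = 1.55e-06), but its log2 ratio of -1.12 turned to 0.62 per canonical length and 0.50 per union exonic length. HSPH1 has the longest canonical transcript of the 10 genes, at 5244 bases. HSPA8, which it serves as exchange factor, made up 93.7% of the counts of the pair HSPA8 and HSPH1 by Nanopore (91.3 to 95.6) and 94.6% by Illumina. Against DNAJB1, the share of HSPH1 was 35.1% by Nanopore (25.6 to 45.4) and 61.0% by Illumina. Against HSPB1 it was 12.3% (8.68 to 16.8) and 57.8%. These shares are also of counts not divided by length.

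DNAJB1 (ENSG00000132002, chromosome 19, 14514769 to 14560391, minus strand) encodes HSP40, a stress-inducible J-domain partner of HSP70. It had 63 Nanopore counts, or 156 CPM (120.1 to 199.9), and 22625 Illumina counts, or 118 CPM (116 to 119.5). The Nanopore to Illumina ratio was 1.32 (1.02 to 1.69), and the exact binomial test gave an adjusted p of 0.0738, which does not pass, while with TMM scaling it gave 0.0283. TECR, a fatty acid elongation gene on the opposite strand that shares 525 exonic bases with DNAJB1, had 51 and 24567 counts (126 and 128 CPM). The microRNA gene MIR639, also on the opposite strand and sharing 98 exonic bases with DNAJB1, had 16 Nanopore and 10 Illumina counts. None of the bases shared with TECR or MIR639 lie in the canonical transcript of DNAJB1. Whether the counting used strand is not given in the sources used here, so counts on the shared bases cannot be told apart.

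HSPB1 (ENSG00000106211, chromosome 7, 76302673 to 76304295, plus strand) encodes HSP27, a small heat shock protein that is abundant in epithelial cells. It had 242 Nanopore counts, or 600.1 CPM (527 to 681), and 25802 Illumina counts, or 135 CPM (133 to 136). The Nanopore level was 4.46-fold higher (3.91 to 5.06; exact binomial test, adjusted p = 1.63e-75), above the ratio of 87.8% of all genes tested. Between HSPA8 and HSPB1, HSPA8 held 67.7% of the counts by Nanopore (64.3 to 71.1) and 96.0% by Illumina. Over all 45 pairs of the 10 genes, the Illumina share lay outside the Nanopore interval in 33 and inside it in 12. All 9 pairs with HSPB1 and all 9 with DNAJB1 were among the 33, with the pair of these 2 genes in both sets. The pairs share genes and are not independent, and pairs of other genes were not counted for comparison. All shares of pairs are of counts not divided by length. With Illumina counts divided by its canonical transcript length of 777 bases, the log2 ratio fell from 2.15 to 1.16 and stayed positive. Relative to the median of all genes on the same scale it was 2.57 by CPM and 0.67 per length. No other gene body overlaps HSPB1, and 16.6% of its 50-base words occurred elsewhere on the main chromosomes.

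HSPD1 (ENSG00000144381, chromosome 2, 197486584 to 197516737, minus strand) and HSPE1 (ENSG00000115541, chromosome 2, 197500140 to 197503449, plus strand) encode mitochondrial HSP60 and HSP10 and are transcribed in opposite directions from a shared promoter region. HSPD1 had 401 Nanopore counts, or 994 CPM (899 to 1097), and 229369 Illumina counts, or 1196 CPM (1191 to 1201). It was 1.20-fold higher by Illumina (1.09 to 1.33; exact binomial test, adjusted p = 0.000571), but its log2 ratio of -0.27 turned to 0.27 per canonical length and 1.23 per union exonic length. HSPE1 had 185 counts, or 459 CPM (395 to 529.9), and 91697 counts, or 478 CPM (475 to 481), and the intervals overlapped (log2 ratio -0.06, exact binomial test, adjusted p = 0.724). HSPD1 made up 68.4% of the pair's counts by Nanopore (64.5 to 72.2) and 71.4% by Illumina, inside the Nanopore interval. Per canonical length, with HSPE1 at 557 bases, the shortest of the 10, the log2 ratio of HSPE1 was -1.53 (exact binomial test, adjusted p = 5.35e-67).

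The readthrough gene HSPE1-MOB4 shares 192 exonic bases with HSPE1 on the same strand. It had 198 Nanopore counts (491 CPM), more than HSPE1 itself, and 31914 Illumina counts (166 CPM), a log2 ratio of 1.56. MOB4, the downstream gene, had 16 and 8157 counts (39.7 and 42.5 CPM; log2 ratio -0.10). Summed with its readthrough and pseudogene rows, HSPE1 had a positive log2 ratio of 0.58 (exact binomial test, adjusted p = 1.31e-12) in place of -0.06. How reads that fall on both gene bodies were assigned is not given in the sources used here, and its part in the HSPE1 value was not tested. HSPD1 and HSPE1 also share 135 exonic bases on opposite strands.

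Per length, the levels of the 10 genes spanned a wide range in both libraries. By Illumina, in counts per canonical transcript length scaled to a fixed total (TPM), HSPA8 stood at 2228, HSP90AB1 at 1374, HSPE1 at 1331, HSP90AA1 at 1239 and HSPD1 at 826. HSPB1 followed at 268, DNAJB1 at 81.6, HSPH1 at 54.4, HSPA1A at 44.1 and HSPA1B at 19.3. By Nanopore, where a read is 1 RNA strand and CPM was not divided by length, the order ran HSPA8, HSPD1, HSP90AA1, HSP90AB1, HSPB1, HSPE1, DNAJB1, HSPH1, HSPA1B and HSPA1A. In that order the Poisson intervals of neighbours overlapped for HSPD1 and HSP90AA1, for HSP90AA1 and HSP90AB1, for HSPB1 and HSPE1, and for HSPA1B and HSPA1A. HSPA8 ranked 134 among all genes by Nanopore CPM and 78 by Illumina TPM, and HSPB1 ranked 253 and 490.

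Dividing by length changed how the 10 genes split. Per canonical length, 4 were higher by Nanopore (DNAJB1, HSPB1, HSPD1 and HSPH1; 33.2% of the 11690 genes tested on that scale) and 5 higher by Illumina (HSP90AA1, HSP90AB1, HSPA8, HSPA1A and HSPE1; 11.2%). Per union exonic length, 3 were higher by Nanopore (DNAJB1, HSPB1 and HSPD1; 32.4% of 11976) and 6 by Illumina (the same 5 and HSPA1B; 12.8%). The median of all genes tested moved from -0.42 by CPM to 0.49 per canonical and 0.40 per union exonic length. Relative to those medians, HSP90AA1 stood at -1.03, -0.88 and -0.94, HSPA8 at -0.95, -1.31 and -0.93, and HSP90AB1 at -0.99, -1.17 and -1.67, by CPM, canonical and union length in turn. These 3 genes stayed below the median of all genes on each scale. HSPB1 stayed above it on each, as did DNAJB1 at 0.82, 0.44 and 1.57.

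**Figure D4:**
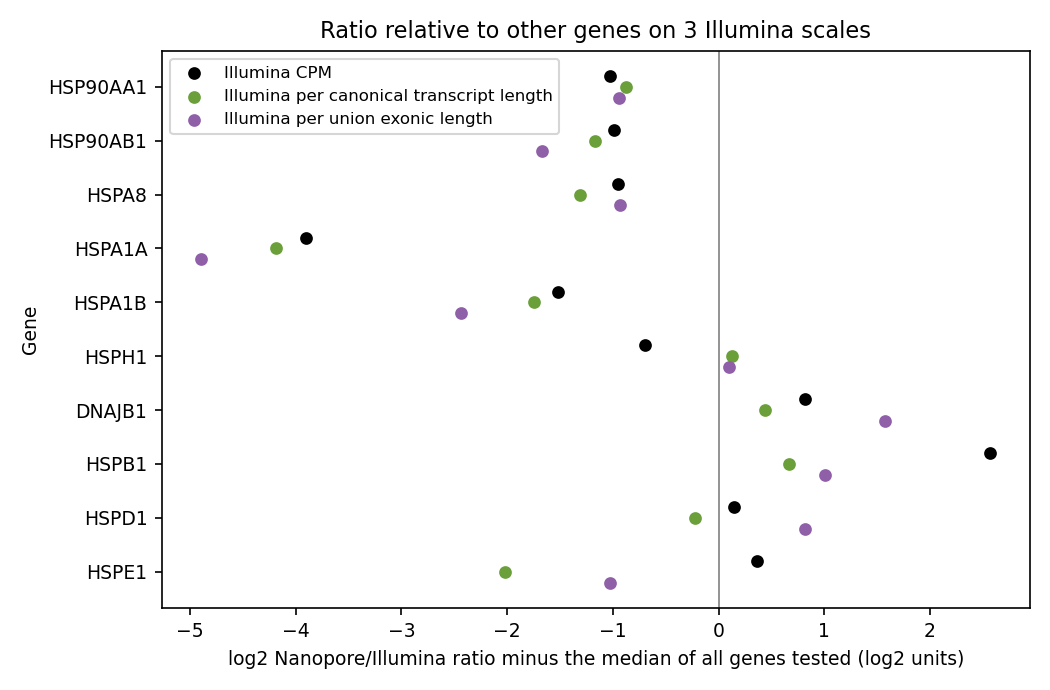
Log2 ratio of Nanopore to Illumina for each gene minus the median of all genes tested, with Illumina as CPM, per canonical transcript length and per union exonic length. HSPE1 moves from 0.36 by CPM to -2.02 per canonical length, while HSP90AA1, HSP90AB1, HSPA8, HSPA1A and HSPA1B stay left of 0 on all 3 scales. DNAJB1 and HSPB1 stay right of 0 on all 3.

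Pseudogene rows, most often intronless copies of a gene's transcript, took few counts. The tables hold 76 pseudogene rows named after the 10 genes, of which 35 had Illumina counts (11694 in all) and 3 had Nanopore counts (6 in all). Those 6 Nanopore counts fell on HSPE1P2 (4), HSPE1P3 (1) and HSPE1P4 (1) and came to 3.24% of the Nanopore counts of HSPE1. HSP90AA2P had 0 Nanopore and 3646 Illumina counts, HSP90AB3P 0 and 2656, HSPD1P1 0 and 1686, HSPA8P9 0 and 973, HSPD1P4 0 and 909, HSP90AB2P 0 and 413, and HSPA8P5 0 and 313. Relative to the Illumina counts of the parent, pseudogene rows came to 1.21% for HSPD1, 0.819% for HSP90AA1, 0.71% for HSP90AB1, 0.251% for HSPE1 and 0.242% for HSPA8. The share of 50-base words found elsewhere on the main chromosomes was 41.3% for HSPD1, 37.2% for HSPE1, 24.6% for HSP90AA1, 23.2% for HSPA8, 22.5% for HSP90AB1, 4.29% for DNAJB1 and 0.212% for HSPH1. Bodies of other genes overlapped 6 of the 10: HSP90AA1, HSPA8, HSPA1B, DNAJB1, HSPD1 and HSPE1. WDR20, opposite HSP90AA1, had 5 and 3569 counts. Within HSPA8 lie the small nucleolar RNA genes SNORD14C, SNORD14D and SNORD14E, with 2 and 0, 1 and 0, and 0 and 86 counts.

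The other chaperone genes leaned the same way by CPM. Of 61 genes in 9 lists, 55 could be tested: 30 were higher by Illumina (27.2% of all genes tested), 1 was higher by Nanopore (20.2%) and 24 did not pass, with a median log2 ratio of -0.66. Per canonical length the same lists gave 14 higher by Illumina (11.2% of all genes on that scale) and 10 by Nanopore (33.2%) among 53 tested. Of those named below as higher by Illumina, FKBP4 (0.47), FKBP5 (0.28), HSPA4L (0.65), ST13 (0.64) and HSBP1 (1.91) had positive log2 ratios there. The others so named stayed negative. Among genes counted below without a name, the mitochondrial CLPB (1.06) and the chaperonin genes CCT6A (0.17) and CCT5 (0.11) also turned positive. The rest stayed negative, with CCT4 (-0.05) and HSPA9 (-0.08) near 0. Each count by list below is by CPM and stands beside the same 27.2% of all genes higher by Illumina, not matched for level. Among HSP90 co-chaperones, AHSA1, FKBP4, FKBP5, PPID and STIP1, 5 of 8, were higher by Illumina (list median -0.88). The ratios ran from -0.21 for the p23 gene PTGES3, which did not pass, to -1.89 for AHSA1, which stimulates the HSP90 ATPase and had 20 and 35724 counts. Of 8 subunits of the TRiC chaperonin, which folds actin and tubulin, 7 were higher by Illumina (median -0.90), against 27.2% of all genes. Their ratios ran from -1.17 for CCT2 to -0.25 for TCP1, which did not pass.

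Other HSP70 and HSP110 genes could be tested for 4 of 6, and HSPA4 and HSPA4L were higher by Illumina (list median -1.09). HSPA4L, an HSP110-type gene, had 8 and 16130 counts (log2 ratio -2.03 by CPM, exact binomial test, adjusted p = 1.2e-06), but its log2 ratio was 0.65 per canonical length. HSPA14, linked to ribosomes, stood at 0.25 by CPM and did not pass. The strictly stress-inducible HSPA6 had 0 Nanopore and 63 Illumina counts, too few to test. J-domain proteins passed as higher by Illumina in 4 of 7 tested, DNAJA1, DNAJA2, DNAJB2 and DNAJC7 (list median -1.28). The list ran from -0.07 for DNAJB6 to -1.88 for DNAJB5, neither of which passed. Exchange factors and adaptors had a median of -0.32, with 2 of 7, BAG5 and ST13, higher by Illumina, a share near that of all genes tested. BAG5, an exchange factor, had 2 and 10734 counts, an Illumina to Nanopore ratio of 11.3 (3.12 to 93.2; exact binomial test, adjusted p = 5.23e-07), and the ubiquitin ligase gene STUB1 stood at 0.35 and did not pass.

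In mitochondria, 6 of 10 further chaperone and protease genes were higher by Illumina (median -0.95; 27.2% of all genes), with GRPEL2, an exchange factor of mitochondrial HSP70, lowest at -1.75. The matrix protease gene LONP1 was the single one of the 55 higher by Nanopore, with 52 and 15371 counts (log2 ratio 0.68, exact binomial test, adjusted p = 0.00521). Prefoldin, which hands actin and tubulin to TRiC, had 3 of 6 genes, PFDN1, PFDN5 and PFDN6, higher by Illumina (list median -0.29). It ran from PFDN4 at 0.37, which did not pass, to PFDN6 (exact binomial test, adjusted p = 3.66e-09). Of the 3 heat shock regulators HSBP1 passed, as higher by Illumina (-0.54), while HSF1 (-0.25) and HSF2 (-0.60) did not. In the list of other small heat shock genes, neither of the 2 tested passed. HSPB8, with 3 Nanopore counts, stood at -0.43. HSPB11, listed by its symbol but annotated as IFT25, stood at -0.50. CRYAB, the lens and muscle small heat shock protein, had 1 and 389 counts, HSPB2 0 and 10, and HSPB6 0 in both.

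**Figure D5:**
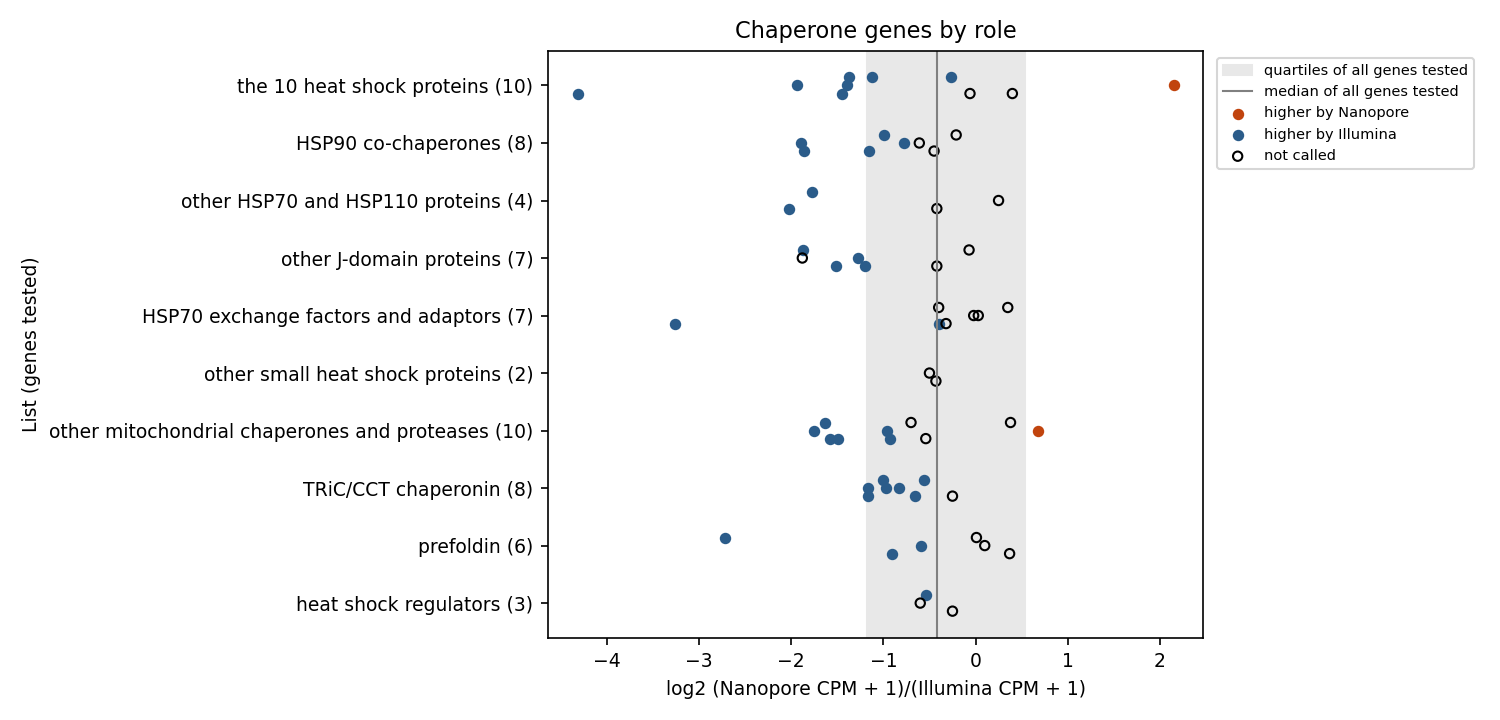
Log2 ratio of Nanopore to Illumina (CPM + 1) for each tested gene of the 10 heat shock proteins and of 9 further chaperone lists, coloured by the call of the exact binomial test, with the median and quartiles of all genes tested in grey. HSPB1 (2.15) and LONP1 (0.68) are the genes called higher by Nanopore, and HSPA1A (-4.32) and BAG5 (-3.26) have the lowest ratios.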

How the data were processed

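Polyadenylated RNA of MCF10a-Snail-ER cells was measured in 1 Nanopore and 1 Illumina library. The authors deposited raw counts per gene without normalization. The submitters' processing notes name minimap2 2.11-r797, HISAT2 2.1.0, featureCounts and hg38, without roles. Counting options, strand use, the treatment of reads with several matches, the annotation and any use of alternate contigs are not given in the sources used here. Per the file headers, the Nanopore column has a tag suffix that no label explains. Whether the libraries share a culture is not stated.

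Identifiers were matched to GENCODE release 44 (58207 of 58735), which gave positions and lengths. CPM was counts per 1000000 of the library total. Intervals are exact, at 95%, and since amplified reads are not independent molecules they cover counting error only. Each gene whose mean reached 5 CPM received an exact conditional binomial test, two-sided (double the smaller tail; SciPy 1.17.1, Python 3.11.15), adjusted by Benjamini-Hochberg with calls at an adjusted p-value under 0.05, and also at 4-fold on the log2(CPM + 1) scale, which shrinks differences of low genes. With 1 library per group no model of the spread could be fitted. The test was also run on simulated counts that held counting error only, as the test assumes, so that run is no check of other spread. Illumina levels per length were counts over the canonical transcript or union exonic length, scaled to 1000000. TMM factors came from edgeR 4.0.16 (R 4.3.3).

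The members and lists were chosen with earlier results of these data known. Named genes were the 10 members, HSPA1L and PFDN6, list genes called with 4-fold, the highest and lowest ratio of each list, overlapping genes of at least 5 CPM, pseudogene and readthrough rows of at least 1 CPM, the protein-coding genes bordering HSPA1A and HSPA1B, and the 3 genes nearest to HSPA8. DNAJA3, HSPA6, CRYAB, HSPB2, HSPB6, SNORD14C, SNORD14D, SNORD14E, SNHG32, HLA-B and list genes outside this rule were named after their values were seen. Added after the values were seen were the HSP90 pseudogenes, the 50-base word search in hg38, the shares of gene pairs and the motif search.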

Additional observations from a re-analysis of the deposited data

How the results depend on the processing

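The alternatives were TMM and median ratio scaling, other pseudocounts and filters, division of Illumina counts by canonical or union exonic length, leaving out mitochondrially encoded genes, and keeping, of the genes outside the chaperone lists, only those that overlap no other (listed genes that overlap stayed in). Summing HSPA1A, HSPA1B and their overlapping long noncoding gene was added after the data were seen. Of 120 values of single members, 100 kept direction and side of the threshold, 3 lost the call, 8 gained one and 9 changed sign. The sign changed for HSPD1 at 0.27 (canonical) and 1.23 (union), HSPH1 at 0.62 (canonical) and 0.50 (union), and HSPE1 at 0.58 when summed with its pseudogene and readthrough rows. HSPE1, not called and near 0, was also positive under TMM (0.03), median ratio scaling (0.07), without mitochondrial genes (0.01) and with the restricted gene set (0.05). Losses were HSPD1 at -0.14 under median ratio scaling and -0.16 with the restricted gene set, and HSPA1B at -1.26 per canonical length. The count of members higher by Nanopore rose from 1 to 2 under TMM, median ratio scaling, without mitochondrial genes and with the restricted gene set, DNAJB1 being the addition (exact binomial test, adjusted p from 0.0177 to 0.036), and to 4 per canonical and 3 per union length. In the wider lists 14 rather than 30 genes were higher by Illumina on either length scale, and 10 (canonical) or 9 (union) rather than 1 by Nanopore. The HLA region had 25 of 109 genes without a Nanopore count at a filter of 1 CPM and 5 of 50 at 20 CPM. The median of all genes moved by 0.10 under TMM, 0.14 under median ratio scaling, 0.91 per canonical and 0.82 per union length. HSPA1B could not be tested at the 20 CPM filter. Nanopore depth limits HSPA1A and HSPA1B, with 4 counts together. No paired analysis was possible because each group has 1 library. The causes of these shifts were not tested.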
